A study of Homo sapiens with 4 samples.

Results

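MALAT1, NEAT1, PVT1, H19, HOTAIR, KCNQ1OT1, OIP5-AS1 and NORAD are long noncoding RNAs (lncRNAs) with known regulatory roles. All 8 were found by gene name in a table of counts for 60544 genes, and 7 had enough counts to be tested. Counts came from poly(A) RNA of PC3, a long-established line of human prostate cancer cells. The control group, labelled shNC, and the METTL3 knockdown group, labelled sh812, had 2 libraries each. The knockdown rests on a single hairpin label, all libraries come from the same unsorted cell line, and the labels do not say whether the libraries of a group are separate cultures, so p-values measure only the spread between these libraries, which may be technical.

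METTL3 is the enzyme that writes N6-methyladenosine (m6A), a mark carried by messenger RNAs and by several lncRNAs, MALAT1 among them. MALAT1 sits in nuclear speckles, where splicing factors gather, and a methylated hairpin in it is known to open a U-rich tract to the protein HNRNPC. NEAT1 is the scaffold of paraspeckles, nuclear bodies that hold proteins such as NONO, SFPQ and PSPC1, and it is made as a short polyadenylated form and a long form. NORAD is a cytoplasmic RNA that binds Pumilio proteins, OIP5-AS1 binds the RNA-stabilizing protein HuR, HOTAIR is linked to the PRC2 and LSD1 chromatin complexes, and H19 and KCNQ1OT1 belong to imprinted loci on chromosome 11. PVT1 lies beside the oncogene MYC. m6A itself was not measured in these libraries.

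The sequences of MALAT1, NEAT1 and NORAD were searched for features for which these RNAs are known. They are given 5′ to 3′ in DNA letters from the longest GENCODE 29 transcript of each gene (GRCh38), and motifs were searched on the transcript's strand only. GGACT, the most frequent core of m6A sites, occurred 13 times in the 8708 bases of MALAT1, or 1.49 per kb, against a median of 0.912 per kb in the 14916 tested transcripts of at least 1000 bases. The MALAT1 density was higher than that of 80.5% of those transcripts, and at least 1 match was found in 93.2% of them. Of the 13 matches in MALAT1, 5 had a TTTTT run within 30 bases. How often this occurs in other transcripts, and whether any of these sites is the known hairpin, was not tested. The windows at chr11:65500306-65500370, chr11:65503323-65503387 and chr11:65505292-65505356, all on the plus strand, show 3 of these, with GGACT in capitals.
MALAT1 first window: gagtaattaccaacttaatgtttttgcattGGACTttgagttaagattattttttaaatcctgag
MALAT1 second window: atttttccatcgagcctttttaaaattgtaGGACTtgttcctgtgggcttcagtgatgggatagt
MALAT1 last window: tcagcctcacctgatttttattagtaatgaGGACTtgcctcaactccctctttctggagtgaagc

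The long forms of MALAT1 and NEAT1 end without an added poly(A) tail, in an A-rich tract encoded in the genome. These libraries were made from RNA captured on oligo(dT), which binds A-rich RNA. The last 11 bases of the annotated NEAT1 transcript were also found in MALAT1, in 2 places. The NEAT1 copy and the MALAT1 copy nearest to the 3′ end are shown in capitals, the latter first, within chr11:65506066-65506116 and chr11:65445490-65445540 on the plus strand. This MALAT1 copy stops 353 bases before the end of the annotated transcript. The same 11 bases were present in 1.45% of the tested transcripts.
MALAT1 tract: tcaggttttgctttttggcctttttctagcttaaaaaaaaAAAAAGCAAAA
NEAT1 tract: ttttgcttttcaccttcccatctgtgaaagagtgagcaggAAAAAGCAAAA

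NORAD carried TGTANATA, the Pumilio recognition motif, 15 times in its 5339 bases, between transcript positions 761 and 4599. Only 6 of the 14916 tested transcripts, NORAD included, had 15 or more matches, and 32.9% had at least 1. In 3 places a pair of matches started 9 bases apart. Single matches at chr20:36049803-36049832 and chr20:36047971-36048000 and pairs at chr20:36049501-36049530 and chr20:36047668-36047697, all on the minus strand, are shown with the motif in capitals.
NORAD single match, first: cctcactactgTGTATATAgttgacaatgc
NORAD single match, second: caaccctactgTGTATATAgcggacaaact
NORAD pair, first: ttacttatctgTGTATATAgTGTACATAaa
NORAD pair, second: ttactgtgctgTGTATATAgTGTATATAag

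Other members differed in the same motifs. HOTAIR held 8 GGACT and 3 TGTANATA matches in 2421 bases, and its densities were higher than those of 99.4% and 99.7% of the tested transcripts. NORAD held 2 GGACT matches, at 0.375 per kb, and MALAT1 held no TGTANATA match. NEAT1, with 19 GGACT matches in 22743 bases (0.835 per kb), and KCNQ1OT1, with 79 in 91667 bases (0.862 per kb), lay near the median density.

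Total counts ranged from 31450648 to 37041330 per library. METTL3 was reduced in both sh812 libraries, at 269 and 313 counts against 1682 and 1379 in shNC. It fell by 2.42 on the log2 scale (SE 0.11, adjusted p = 5.54e-14), tested with the quasi-likelihood method of edgeR and Benjamini-Hochberg adjustment, which also gave the adjusted p-values that follow. The epithelial keratins KRT8 and KRT18 and the prostate factor HOXB13 were at 222 to 254, 139 to 194 and 155 to 168 CPM (counts per 1000000, on TMM-scaled library sizes), while KLK3, which encodes prostate-specific antigen, had 0 counts in all 4 libraries. The leukocyte marker PTPRC reached at most 0.844 CPM, and PECAM1 and COL1A1, markers of endothelium and fibroblasts, lay at 23.7 to 38.5 and 29.3 to 39.4 CPM.

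Abundance spread over several orders of magnitude among the 8 RNAs. Compared per length, as CPM per kb of annotated exon (RPKM), NORAD was highest, with a mean over the 4 libraries of 105.6 RPKM, second among the 2140 tested lncRNA genes with a known length. OIP5-AS1 followed at 14.7 RPKM, PVT1 at 3.08, NEAT1 at 2.50 and MALAT1 at 1.90. HOTAIR was at 0.217 RPKM and KCNQ1OT1, counted over 91667 bases, at 0.0187 RPKM. H19 had 0 counts in all 4 libraries. The exact 95% Poisson interval of a count of 0 reaches up to 3.69 counts, or 0.0973 to 0.117 CPM per library, and covers counting error only.

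Neighbours in this order were not always separated. PVT1 ranged from 2.78 to 3.51 RPKM over the libraries, NEAT1 from 2.10 to 3.25 and MALAT1 from 1.504 to 2.60, so that each overlapped the next. The place of PVT1 rests on which exons are counted as its length, since it reached 9.94 RPKM when only its longest transcript was used, and OIP5-AS1 then reached 21.1 RPKM. MALAT1, which is among the most abundant nuclear RNAs in many cells, ranked 348th of the 2140 lncRNA genes in RPKM and 72nd of 2299 in CPM in this poly(A) RNA. What oligo(dT) capture does to its level was not tested.

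**Figure D1:**
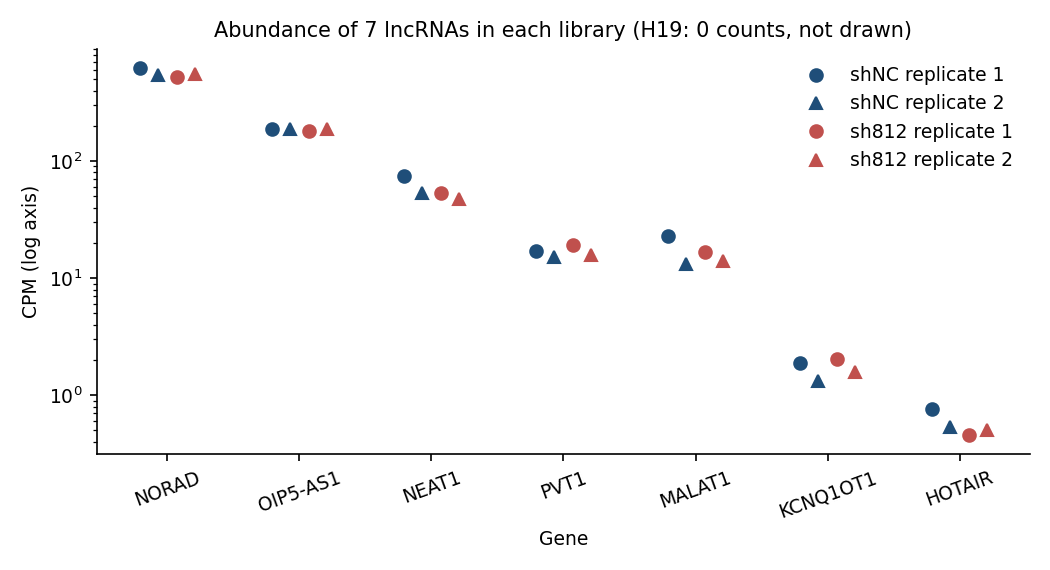
CPM (log axis) of 7 lncRNAs in each of the 4 libraries, with shNC in blue, sh812 in red, circles for replicate 1 and triangles for replicate 2. shNC replicate 1 is the highest library for NORAD, NEAT1, MALAT1 and HOTAIR but not for OIP5-AS1, PVT1 or KCNQ1OT1; H19 had 0 counts and is not drawn.

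The comparison of sh812 with shNC asked whether these RNAs changed when METTL3 was reduced. Of the 7 members that passed the low-count filter, 1 had an adjusted p under 0.05, NEAT1, which was lower in sh812. Among all 16802 genes tested, 5.42% were called lower and 5.43% higher by the same rule. With only 7 members, 1 call is too few to set apart from these shares. Among the 2299 tested lncRNA genes, 38 were called higher and 19 lower, or 2.48% in all. The median log2 fold change of the 7 members was -0.13, against -0.0056 for all genes tested and -0.0054 for the tested lncRNA genes. It was -0.0041 without shNC replicate 1, -0.22 without shNC replicate 2, -0.088 without sh812 replicate 1 and -0.069 with the length trend removed.

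NEAT1 (ENSG00000245532), the paraspeckle scaffold, lies on chromosome 11 at 65422774 to 65445540 of GRCh38, plus strand. It drew 2806 and 1688 counts in shNC against 1857 and 1707 counts in sh812. This is 74.0 and 53.4 CPM in shNC and 52.9 and 47.7 CPM in sh812. Both sh812 libraries lay below both shNC libraries, an arrangement seen in 27.4% of the tested genes, but shNC replicate 2 exceeded sh812 replicate 1 by less than the counting error, with 95% exact Poisson intervals of 50.9 to 56.0 and 50.5 to 55.4 CPM. The group means were 63.7 ± 14.6 CPM for shNC and 50.3 ± 3.68 CPM for sh812 (SD, n = 2), or 79.0% of the control. The fitted log2 change was -0.34 (SE 0.10, 95% interval -0.55 to -0.13), and its edgeR adjusted p was 0.0299. In bulk RNA, fewer cells with the transcript and less of it per cell cannot be told apart.

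The NEAT1 call was lost without shNC replicate 1 and also without sh812 replicate 2. Without shNC replicate 1 the log2 fold change was -0.086, and without shNC replicate 2 it was -0.55. Without sh812 replicate 2 it was -0.27. Each of these fits has 1 library left in a group and cannot measure that group's spread, so no p-value is given for them. DESeq2 gave -0.34 with an adjusted p of 0.411.

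Across genes, long transcripts had lower ratios of shNC replicate 2 over replicate 1 (Spearman rho -0.32 over 12254 genes) and of sh812 over shNC (-0.33). Both ratios contain shNC replicate 1, and genes are not independent replicates. For sh812 replicate 2 over replicate 1, rho was 0.042. The fitted length trend at the 22743 bases of NEAT1 was -0.14 (log2) between shNC replicates 2 and 1 and -0.096 between sh812 and shNC. With the length trend of each library removed, the NEAT1 log2 fold change was -0.24, not passing the test (edgeR adjusted p = 0.098), and with length and GC content removed it was -0.24 (edgeR adjusted p = 0.0723). How far the length trend enters the NEAT1 difference was not tested beyond these fits. Reads of the short and the long form, 3441 and 22743 bases in the annotation, share 1 count here, so no form can be given its own value.

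MALAT1 (ENSG00000251562), the speckle RNA and m6A carrier, lies at 65497688 to 65506516 on the same chromosome and strand. It had 872 and 420 counts in shNC and 592 and 502 counts in sh812. This is 23.0 and 13.3 CPM against 16.9 and 14.0 CPM, so both sh812 libraries lay between the control libraries. Its mean was 18.1 ± 6.87 CPM for shNC and 15.4 ± 2.01 CPM for sh812 (SD, n = 2). The log2 change of -0.24 (SE 0.16, 95% interval -0.57 to 0.094) did not pass the test (edgeR adjusted p = 0.386). Its sign turned with the control library used. It was 0.22 without shNC replicate 1 (adjusted p = 0.386 in edgeR) and -0.57 without shNC replicate 2 (adjusted p = 8.42e-05 in edgeR).

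The gap between the control libraries was itself unusual for MALAT1. Its CPM was 1.73-fold higher in shNC replicate 1 than in replicate 2, a log2 ratio of replicate 2 over replicate 1 of -0.79. This gap was larger than that of 99.95% of the 10839 tested genes with a mean of at least 5 CPM, whose median gap was 0.099. The 95% exact Poisson intervals, 21.5 to 24.6 CPM and 12.0 to 14.6 CPM, did not overlap. NEAT1, which ends 52147 bases from the start of MALAT1 on the same strand, had a control gap of -0.47, larger than that of 98.7% of these genes. The fitted length trend at the length of MALAT1 was -0.085 between the same libraries, and its part in the MALAT1 gap was not tested.

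The sh812 libraries were closer to each other for both RNAs. Their log2 ratio, again replicate 2 over replicate 1, was -0.27 for MALAT1 and -0.15 for NEAT1, against a median gap of 0.071 over the same genes.

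**Figure D2:**
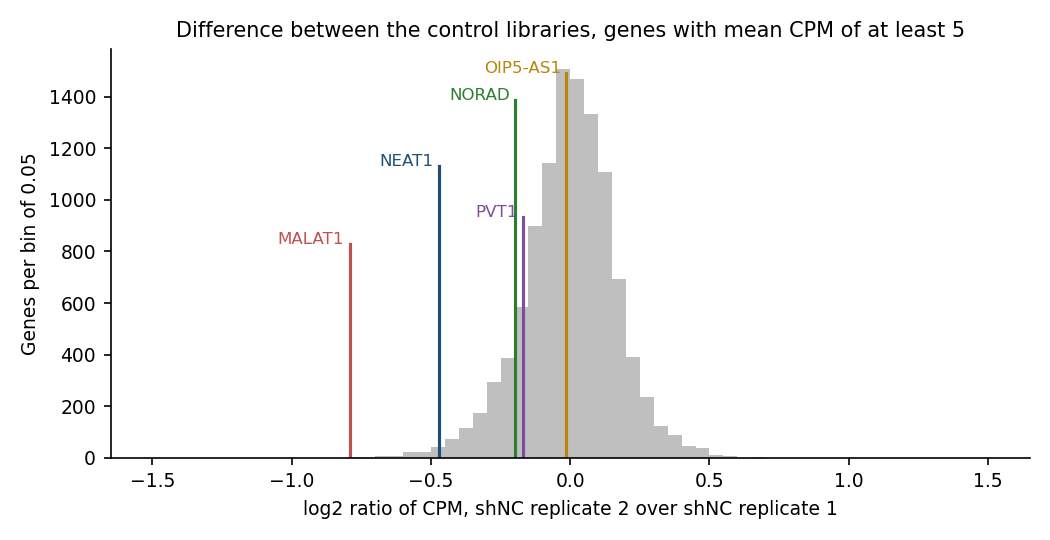
Histogram of the log2 CPM ratio of shNC replicate 2 over shNC replicate 1 for the tested genes with a mean of at least 5 CPM (x axis in bins of 0.05, y axis in genes), with vertical lines at 5 of the lncRNAs; the line heights carry no value. MALAT1 at -0.79 and NEAT1 at -0.47 stand in the left tail, and OIP5-AS1 at -0.014 stands at the centre.

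NORAD (ENSG00000260032), the Pumilio-binding RNA, is a single exon on chromosome 20 at 36045622 to 36050960, minus strand. It was the most abundant tested lncRNA gene in CPM. It was at 629 and 549 CPM in shNC and 523 and 554 CPM in sh812. The groups overlapped, because sh812 replicate 2 lay above shNC replicate 2. Its log2 fold change of -0.13 (SE 0.063, 95% interval -0.26 to 0.00033) did not pass (edgeR adjusted p = 0.203). Without shNC replicate 2 it was -0.22, and without shNC replicate 1 it was -0.027, each with 1 control library left.

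OIP5-AS1 (ENSG00000247556), the HuR-binding RNA, lies on chromosome 15 at 41283990 to 41309737, plus strand. Its control libraries were the closest among the 7 tested members. It was at 188 and 186 CPM in shNC and 182 and 189.8 CPM in sh812, so the control libraries lay inside the range of the sh812 libraries. The log2 fold change was -0.011 (SE 0.059, adjusted p = 0.937 in edgeR), and its 95% interval of -0.13 to 0.11 gives the range of change these libraries allow. OIP5, a centromere protein gene on the opposite strand, shares 470 exon bases with OIP5-AS1. It had 388 and 417 counts in shNC and 463 and 495 counts in sh812 (log2 fold change 0.21, adjusted p = 0.348 in edgeR).

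PVT1 (ENSG00000249859), whose gene runs from 127794533 to 128101253 on chromosome 8, was at 17.2 and 15.3 CPM in shNC and 19.3 and 15.8 CPM in sh812. The groups overlapped, and the log2 fold change of 0.11 (SE 0.12, 95% interval -0.13 to 0.36) did not pass (adjusted p = 0.623 in edgeR). Its neighbour MYC, the oncogenic transcription factor, was at 167 and 167 CPM in shNC and 216 and 223 CPM in sh812. MYC was called higher, by 0.40 on the log2 scale (SE 0.059, edgeR adjusted p = 7.7e-05), and stayed called without each library in turn, at 0.37 to 0.42. The difference between the MYC and PVT1 changes was not tested.

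KCNQ1OT1 (ENSG00000269821), the antisense RNA of the imprinted KCNQ1 domain, lies on chromosome 11 at 2608328 to 2699994, minus strand. It had 72 and 42 counts in shNC and 72 and 56 in sh812. The groups overlapped at 1.90 and 1.33 CPM against 2.05 and 1.56 CPM, and the log2 fold change of 0.16 had a 95% interval of -0.53 to 0.84 (adjusted p = 0.829 in edgeR). HOTAIR (ENSG00000228630), transcribed from the HOXC cluster on chromosome 12 at 53962308 to 53974956, minus strand, had 29 and 17 counts in shNC and 16 and 18 in sh812. At 0.765 and 0.538 CPM against 0.456 and 0.503 CPM the groups did not overlap, with sh812 below shNC as in 27.4% of the tested genes. The counting intervals did overlap, and the log2 fold change of -0.45 had an interval of -1.61 to 0.72 (adjusted p = 0.69 in edgeR). These intervals hold falls and rises alike, so no direction was detectable at this depth.

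**Figure D3:**
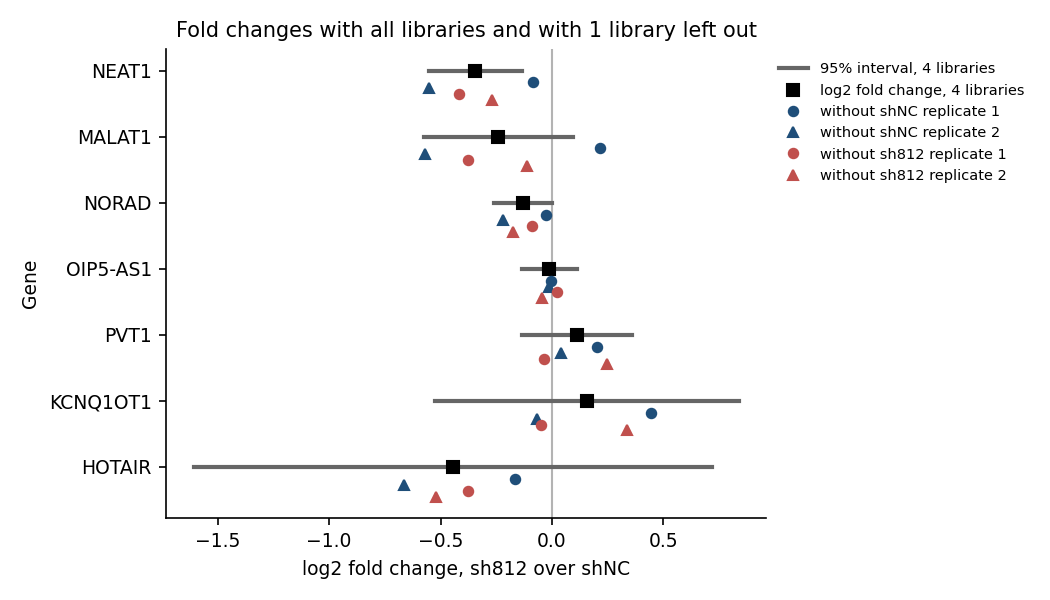
Log2 fold change of sh812 over shNC (x axis) for the 7 tested lncRNAs: black squares with grey 95% intervals from all 4 libraries, and coloured points with 1 library left out. The NEAT1 interval lies below 0, and the MALAT1 points run from -0.57 (shNC replicate 2 left out) to 0.22 (shNC replicate 1 left out).

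Few annotated genes that overlap the members carried reads. Of 31 such genes in the table, 26 had 0 counts in all libraries. The others were OIP5, HOXC11 with 4 to 13 counts per library beside HOTAIR, KCNQ1 with 0 to 5 counts, and TMEM75 and AC103705.1 inside PVT1 with at most 10 and 1 counts. Whether counting used strand is not given in the sources used here, so reads of opposite strands may not be separable at these loci.

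By expression pattern, the genes nearest to MALAT1 over the 4 libraries were CENPE, GRPR and CEP290, at distances of 0.115, 0.141 and 0.142 in centred log2 CPM. CENPE, a kinetochore motor, was at 46.0 and 28.1 CPM in shNC and 32.8 and 30.3 CPM in sh812. Nearest to NEAT1 were TTLL7, SMC4 and NBPF8, at distances of 0.0472, 0.059 and 0.0671. SMC4, a condensin subunit, was at 292 and 220 CPM in shNC and 207 and 191 CPM in sh812 and was itself called lower (log2 fold change -0.36, adjusted p = 0.00594 in edgeR). The distances rest on 4 values each and are a description only.

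The genes of proteins known to work with these RNAs were read by list. Of 15 paraspeckle protein genes, 5 rose and 0 fell, beside 5.43% of all tested genes called higher, and the list's median log2 fold change was 0.16 against -0.0056 for all genes. All 15 fitted values were above 0, from 0.013 for NONO to 0.35 for PSPC1. PSPC1, a core paraspeckle protein, was at 60.4 and 57.6 CPM in shNC and 76.4 and 74.1 CPM in sh812 (SE 0.071, adjusted p = 0.00215 in edgeR). Its groups did not overlap, with sh812 above shNC as in 26.2% of the tested genes. The RNA-binding protein genes RBM14, TAF15, EWSR1 and HNRNPM rose by 0.25, 0.25, 0.20 and 0.19 on the log2 scale (edgeR adjusted p = 0.0259, 0.0195, 0.0309 and 0.0359). SFPQ, the partner of NONO, had a log2 fold change of 0.16 (adjusted p = 0.0661 in edgeR).

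The direction held in most of these genes under each scaling. The 5 calls held with RLE and upper quartile factors, but not with library size alone. With library size alone, which moves the median of all genes to -0.050, 13 of 15 were above 0 and only PSPC1 was called. Without shNC replicate 1 the paraspeckle list had 6 called higher, without shNC replicate 2 it had 9, without sh812 replicate 2 it had 2, and without sh812 replicate 1 it had 0. With the length trend removed it had 7, and 14 of 15 were above 0. These 7 did not include TAF15 (0.18, edgeR adjusted p = 0.0981) or HNRNPM (0.14, edgeR adjusted p = 0.0789). RBM14 lost its call without shNC replicate 1 (0.17).

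Of 13 nuclear speckle and m6A-switch genes, 2 rose and 0 fell, beside 5.43% of all tested genes called higher and 5.42% lower, with a median log2 fold change of 0.064. These were the splicing factors SRSF7 and SRSF3, at 0.22 and 0.19 on the log2 scale (edgeR adjusted p = 0.022 and 0.0351). Neither was called with library size alone or without either sh812 library, and SRSF3 also lost its call without shNC replicate 1 (0.13). The list had 4 called higher with the length trend removed, beside 796 genes in all. Its median was 0.12 without shNC replicate 1 or without sh812 replicate 2, 0.13 with the length trend removed and 0.018 with library size alone. HNRNPC, the reader of the MALAT1 hairpin, was at 0.14 (adjusted p = 0.114 in edgeR), and YTHDC1, the nuclear m6A reader, at -0.038 (adjusted p = 0.82 in edgeR).

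The gene of HuR, ELAVL1, was at 194 and 205 CPM in shNC and 225 and 219 CPM in sh812. Its log2 fold change of 0.15 did not pass (adjusted p = 0.0974 in edgeR), although both sh812 libraries lay above both shNC libraries, as in 26.2% of the tested genes.

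Of 13 genes of the PRC2 and LSD1-CoREST-REST complexes, KDM1A rose and REST fell, beside the same 5.43% and 5.42% of all tested genes. KDM1A, which encodes the demethylase LSD1, was at 227 and 218 CPM in shNC and 273 and 274 CPM in sh812 (log2 change 0.30, SE 0.058, edgeR adjusted p = 0.00143), and it stayed called without each library in turn. REST, a repressor of neuronal genes, had a log2 fold change of -0.24 (adjusted p = 0.0391 in edgeR), which became -0.18 without shNC replicate 1. The REST call was lost there, without either sh812 library, with the length trend removed (-0.16) and with DESeq2 (adjusted p = 0.0588). The list's median log2 fold change was 0.019 with all libraries and 0.031 without shNC replicate 2. The PRC2 catalytic subunit gene EZH2 had a value of -0.22 (adjusted p = 0.0931 in edgeR).

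Of 24 genes chosen as genomic neighbours of the 8 loci, 19 were tested, 2 rose and 0 fell, beside 5.43% and 5.42% of all tested genes, with a median log2 fold change of -0.018. These were MYC and CPNE1, a phospholipid-binding copine gene of the chromosome 20 region of NORAD (log2 change 0.19, edgeR adjusted p = 0.0422). CPNE1 lost its call without either sh812 library and without shNC replicate 1. Its call was also lost with library size alone (log2 change 0.15, edgeR adjusted p = 0.107) and with the length trend removed (log2 change 0.13, edgeR adjusted p = 0.132). The list's median turned from -0.075 without shNC replicate 1, where 21 were tested, to 0.074 without shNC replicate 2, where 20 were tested. It was also above 0 without sh812 replicate 1 (0.038). The imprinted genes of the KCNQ1OT1 domain, CDKN1C and PHLDA2, had values of -0.34 (adjusted p = 0.462 in edgeR) and -0.13 (adjusted p = 0.393 in edgeR). IGF2, the partner of H19, had 0 to 16 counts per library and was not tested.

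Of 40 other regulatory lncRNAs in the table, 7 had 0 counts in all libraries and 25 were tested. Of these, 1 rose and 0 fell, beside 5.43% and 5.42% of all tested genes, with a median log2 fold change of 0.054. The list's median was 0.046 without shNC replicate 1, 0.068 without shNC replicate 2 and 0.022 without sh812 replicate 1. It was -0.030 without sh812 replicate 2 and -0.030 with the length trend removed. The called gene was GAS5, a growth-arrest and snoRNA host transcript, at 53.8 and 51.0 CPM in shNC and 62.4 and 61.4 CPM in sh812 (log2 fold change 0.24, SE 0.074, adjusted p = 0.0359 in edgeR). GAS5 was not called with the length trend removed, at 0.15 (adjusted p = 0.199), nor with library size alone, nor without either sh812 library. TUG1, an abundant nuclear and cytoplasmic lncRNA, had a value of -0.14 (adjusted p = 0.236 in edgeR), and DANCR one of 0.061 (adjusted p = 0.731 in edgeR).

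**Figure D4:**
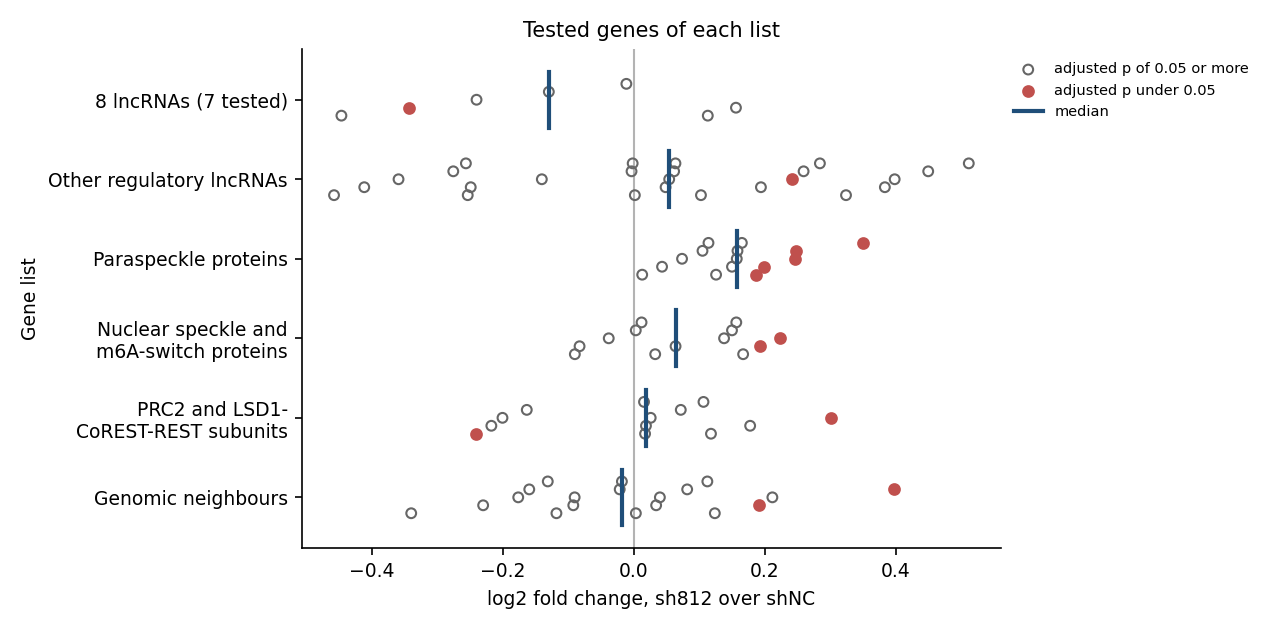
Log2 fold change of sh812 over shNC (x axis) of each tested gene in 6 lists, with red points for an adjusted p under 0.05, open points for the rest and blue bars for list medians. NEAT1 is the only red point among the 8 lncRNAs, and the 15 paraspeckle protein genes all lie above 0, which became 13 of 15 with library size alone.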

How the data were processed

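The authors deposited raw counts per gene, which were used unchanged. The submitters' processing notes name fastp, STAR 2.7.1a, featureCounts, DESeq2 and hg38, without roles. The annotation and strand setting are not given in the sources used here. Library totals ranged from 31450648 to 37041330, and intervals from counts cover counting error only. edgeR 4.0.16 in R 4.3.3 (filterByExpr, TMM, glmQLFit and glmQLFTest, no covariate) was fitted to all 16802 genes that passed the filter, with Benjamini-Hochberg adjustment over these and calls at an adjusted p under 0.05. SE came from the F statistic, and 95% intervals from SE and the fit's degrees of freedom. CPM used TMM-scaled library sizes. RPKM, positions, lengths and sequences came from GENCODE 29 (GRCh38). DESeq2 1.42.0 and limma-voom (3.58.1), other scalings and filters, a replicate block, removal of each library's lowess length and GC trend (span 0.3) and leaving out each library were alternatives.

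The members and lists were chosen with earlier results of these data known. Named genes were METTL3, the 8 members, overlapping genes, up to 6 called genes per list and direction, and the 3 tested genes of at least 5 mean CPM nearest in log2(CPM + 0.5) to MALAT1 and to NEAT1. Other genes named from the lists were chosen after their values were seen, for their known link to a member. The list of proteins that bind NORAD is not reported here.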

Additional observations from a re-analysis of the deposited data

How the results depend on the processing

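METTL3 stayed called under each alternative. NEAT1 stayed called with each other scaling, each other filter and limma-voom. It lost its call with DESeq2 (-0.34), with the length trend removed (-0.24) and with length and GC removed (-0.24), so that 0 members were called lower in these 3 settings. OIP5-AS1 changed sign with the length trend removed (0.074) and with length and GC removed (0.081). The other members kept their sign in every alternative that used all libraries. HOTAIR could not be tested at a mean of at least 1 CPM. With library size alone, 561 genes were called higher and 1328 lower, against 912 and 910.

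The median of the other regulatory lncRNAs (0.054) was 0.0094 with library size alone, 0.019 at a mean of at least 1 CPM, -0.030 with the length trend removed and -0.037 with length and GC removed. Why these values moved was not tested.

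Leaving out 1 library leaves a group with 1 sample, which is then assumed to vary like the other group. NEAT1 ran from -0.55 to -0.086, MALAT1 from -0.57 to 0.22, where it was positive without shNC replicate 1, and NORAD from -0.22 to -0.027. PVT1 ran from -0.034 without sh812 replicate 1 to 0.25. KCNQ1OT1 ran from -0.065 without shNC replicate 2 to 0.44, and was also negative without sh812 replicate 1 (-0.050). OIP5-AS1 ran from -0.044 to 0.021, without sh812 replicate 1. Members called lower ran from 0, without shNC replicate 1 or sh812 replicate 2, to 3 without shNC replicate 2. Genes called higher ran from 261 to 1703 and lower from 326 to 1549. The lncRNA list median ran from -0.030 to 0.068. Of the 12 called partner, neighbour and other lncRNA genes named, 12 kept their direction throughout. They stayed called in 8, 12, 2 and 4 cases without shNC replicates 1 and 2 and sh812 replicates 1 and 2, in 4 with library size alone, in 11 with DESeq2 and in 7 both with the length trend and with the length and GC trend removed.

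Same-numbered libraries did not deviate together (Pearson correlation 0.016 across genes), and the labels do not tie the numbers to a batch. With the replicate block, NEAT1 was at -0.33 (adjusted p = 0.00574 in edgeR), MALAT1 at -0.20, and no member's call changed. Depth limits HOTAIR and KCNQ1OT1, with under 100 counts per library.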

Other observations

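Among the other regulatory lncRNAs, 3 that were picked out once their values were known lay just outside the threshold. Their groups did not overlap. Of all tested genes, 27.4% had both sh812 libraries below both shNC libraries and 26.2% had both above. LINC00511 was at 16.2 and 19.2 CPM in shNC and 14.0 and 13.5 CPM in sh812 (log2 fold change -0.36, adjusted p = 0.0531 in edgeR). ZFAS1, a snoRNA host transcript, was at 9.83 and 11.3 CPM in shNC and 14.0 and 13.5 CPM in sh812 (0.38, adjusted p = 0.0541 in edgeR). HCG18 was at 43.7 and 39.7 CPM in shNC and 34.2 and 35.9 CPM in sh812 (-0.25, adjusted p = 0.0575 in edgeR).

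NUSAP1, a mitotic spindle gene near OIP5-AS1 on chromosome 15, had 6 and 2 counts in shNC and 3 and 9 counts in sh812. It was also picked out on its values.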
